A study of Mus musculus with 16 samples.

Results

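Metallothionein genes of the mouse lie together on chromosome 8, and here the 6 genes Mt1, Mt2, Mt3, Mt4, Gm45774 and Ciapin1 were followed through RNA sequencing of the ileum. They are 6 of the 41740 gene names in the count files. The members were chosen by their measured values: Gm45774, Mt4 and Ciapin1 were selected on the difference between the libraries labelled ieIRKO-STAM-INS and Control-STAM-INS, and Mt1, Mt2 and Mt3 were added as the neighbouring metallothioneins, so every difference of these 6 genes that involves the ieIRKO-STAM-INS libraries is given below as a description with no test. All 6 passed the filter on low counts and were among the 15267 genes tested, but Mt4 passed it only through the ieIRKO-STAM-INS libraries.

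The libraries came from male STAM mice on the C57BL/6J background, a model in which streptozotocin on day 2 after birth damages the insulin-producing cells and feeding on high-fat chow starts at 4 weeks, and the ileum was taken at 20 weeks. Control-STAM-nonINS (4 libraries) received no insulin, Control-STAM-INS (6 libraries) received insulin degludec, a long-acting insulin, in 2 injections a day, begun at 6 weeks, of up to 12 U/kg, and ieIRKO-STAM-INS (6 libraries) received the same insulin and carried an insulin receptor deletion driven by Villin-Cre, which is active in the intestinal epithelium. Mice of all 3 groups carried a floxed insulin receptor gene and received streptozotocin and the diet. Since the Cre transgene and the receptor deletion differ together between genotypes, their parts in a difference cannot be told apart. The RNA was that of the whole ileal wall, so cells in which Villin is silent were sequenced too, and a lower level in fewer cells of a type cannot be told apart from less RNA per cell.

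Total counts per library ranged from 13288018 to 22215382. Insr, the deleted receptor gene, stood at 88.3 to 116 CPM (reads scaled to library sizes normalised with TMM) in Control-STAM-nonINS, at 49.9 to 76.1 CPM in Control-STAM-INS and at 57.5 to 90.4 CPM in libraries labelled ieIRKO-STAM-INS. By this measure the receptor gene was not lower in ieIRKO-STAM-INS mice than in insulin-treated controls (log2 fold change 0.10, 95% interval -0.15 to 0.35, adjusted p = 0.805, edgeR quasi-likelihood test), although gene-level counts do not separate the floxed exon from the rest of the transcript. The knockout could therefore not be checked in these counts, and the group is called by its label throughout. All 8 enterocyte markers examined were detected, with a summed level of 10956 to 35785 CPM over the libraries. B cell genes set replicates 2 and 3 of ieIRKO-STAM-INS apart, with Ms4a1 at 80.3 and 37.4 CPM against 0.599 to 4.88 CPM in the other 14 libraries.

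Metallothioneins are small, cysteine-rich proteins that bind zinc, copper and cadmium. Mt1 and Mt2 are made in most tissues, and their transcription is induced by zinc through the metal-responsive factor MTF1, by glucocorticoids and by oxidative stress. In the intestine they are known for buffering zinc in enterocytes and in Paneth cells. Mt3 is known mainly from the brain and Mt4 from stratified squamous epithelium. Gm45774 is annotated as an antisense transcript to Mt2 with no assigned function, and Ciapin1 encodes an electron carrier of cytosolic iron-sulphur cluster assembly with a part in protection from apoptosis.

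On GRCm38 (GENCODE M21) the 4 metallothionein genes lie on the plus strand in the order Mt4 (chr8:94137197-94139031), Mt3 (chr8:94152607-94154146), Mt2 (chr8:94172664-94173568) and Mt1 (chr8:94179082-94180327). The Mt2 and Mt1 genes are separated by 5.51 kb, whereas Mt3 starts 26.5 kb and Mt4 41.9 kb before Mt1. Gm45774 (chr8:94170748-94173412) has a single exon on the minus strand that covers 355 of the 511 exonic bases of Mt2 (69.5%) and runs on for 1916 bases beyond the Mt2 start. Ciapin1 (chr8:94819804-94838358, minus strand) starts 659 kb from Mt1 on the far side of the cluster. Insr lies on the same chromosome, 91.1 Mb away.

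**Figure D1:**
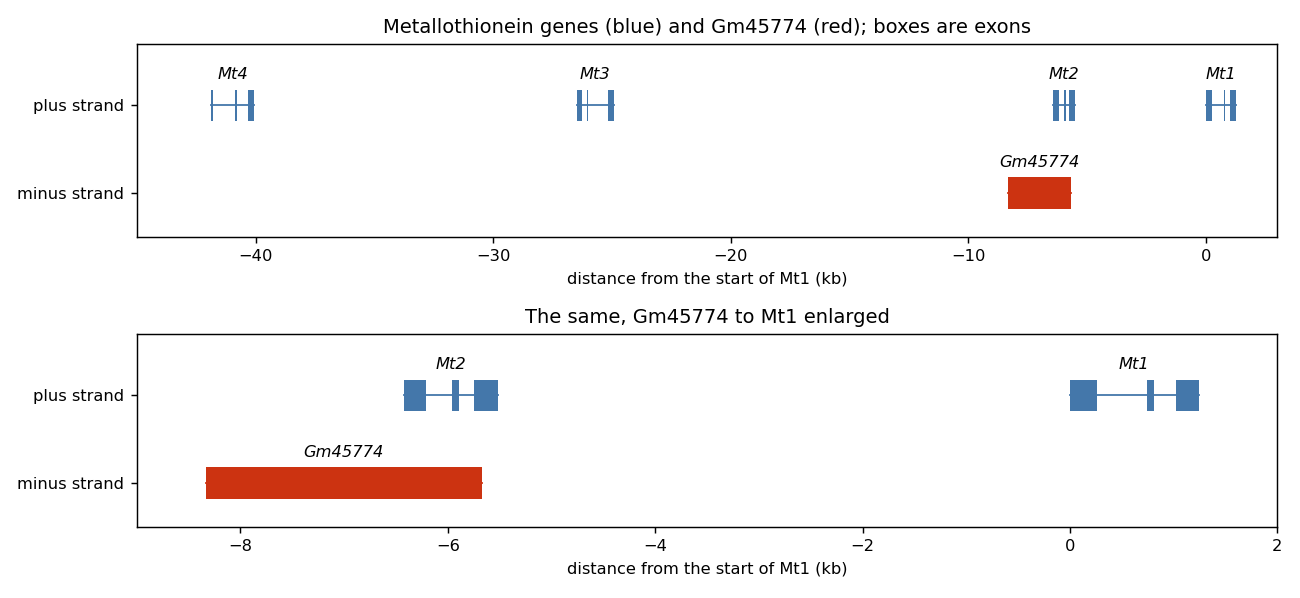
Map of the metallothionein genes and Gm45774, with distance from the start of Mt1 in kb on the x axis and the strand on the y axis; boxes are exons and thin lines introns. The single exon of Gm45774 lies opposite 355 of the 511 exonic bases of Mt2 and reaches 1916 bases past the Mt2 start, while Mt1, Mt3 and Mt4 are clear of it.

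The promoters are shown because matches to the core of the metal response element, through which MTF1 acts, can be looked for in them. Gm45774 also crosses the Mt2 promoter. Sequence before the start site was taken from RefSeq (GRCm38.p6) for chr8:94178839-94179081 (Mt1), chr8:94172368-94172617 (Mt2) and chr8:94136954-94137196 (Mt4), all on the plus strand, and the table used held no entry for Gm45774. Capitals mark matches to the core of the metal response element, TGCACNC or TGCGCNC, on either strand.
Mt1: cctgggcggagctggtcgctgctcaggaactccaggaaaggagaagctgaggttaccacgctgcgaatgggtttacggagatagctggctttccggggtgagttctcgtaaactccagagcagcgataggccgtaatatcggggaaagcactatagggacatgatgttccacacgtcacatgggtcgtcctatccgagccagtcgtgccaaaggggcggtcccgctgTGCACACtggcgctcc
Mt2: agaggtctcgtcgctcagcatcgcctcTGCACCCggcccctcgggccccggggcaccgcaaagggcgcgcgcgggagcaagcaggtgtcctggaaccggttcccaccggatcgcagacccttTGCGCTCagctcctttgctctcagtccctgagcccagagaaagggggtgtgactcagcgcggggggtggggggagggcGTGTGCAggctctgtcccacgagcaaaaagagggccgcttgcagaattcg
Mt4: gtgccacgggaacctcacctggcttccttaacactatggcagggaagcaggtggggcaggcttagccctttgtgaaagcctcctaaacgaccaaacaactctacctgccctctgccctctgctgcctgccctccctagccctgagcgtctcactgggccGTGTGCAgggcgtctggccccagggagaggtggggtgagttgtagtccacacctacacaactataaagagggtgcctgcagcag

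In windows of 300 bases from 250 before to 50 after the RefSeq start, the core was found 3 times at Mt1, 4 times at Mt2, once at Mt3, once at Mt4 and not at Ciapin1. Of 32851 mouse promoters of the same length, 25.7% held at least 1 match, 1.97% held 3 or more and 0.517% held 4 or more. In the printed sequences the matches began 23 bases before the start of Mt1, 223, 128 and 50 bases before the start of Mt2 and 91 bases before the start of Mt4, and the matches not printed lay after the starts, at 2 and 20 bases for Mt1 and 4 bases for Mt2. The whole printed Mt2 promoter lies within Gm45774. A match is a description of the letters and not of binding. The windows follow the annotated starts, and bases more than 50 after a start were not searched, so elements there would be missed.

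Per length, Mt1 and Mt2 had the highest means of the 6 genes in every group. In Control-STAM-nonINS the means were 577 ± 240 CPM per kb for Mt1 and 567 ± 267 for Mt2 (SD, n = 4), which did not differ beyond their spread. Ciapin1 followed at 15.3 ± 2.45 CPM per kb, and Gm45774 (1.15 ± 0.333), Mt3 (0.951 ± 0.466) and Mt4 (0.224 ± 0.379) were near the bottom, of which neighbouring pairs overlapped. In Control-STAM-INS the order per kb was Mt1 (290 ± 160), Mt2 (138 ± 94.3), Ciapin1 (15.0 ± 1.06), Mt3 (1.10 ± 0.330), Gm45774 (0.218 ± 0.121) and Mt4 (0.0880 ± 0.143; SD, n = 6 for each), with overlap between Mt1 and Mt2 and between Gm45774 and Mt4. The overlap of Mt1 and Mt2 was one between libraries, and within each library of this group Mt1 was the higher per kb. Under the ieIRKO-STAM-INS label the order per kb was Mt1 (771 ± 208), Mt2 (110 ± 46.3), Gm45774 (34.5 ± 3.57), Mt4 (33.5 ± 23.2), Ciapin1 (22.0 ± 2.72) and Mt3 (0.862 ± 0.505; SD, n = 6 for each). There Mt1 no longer overlapped Mt2, Gm45774 had passed Ciapin1, and Mt4, at 12.1 to 76.6 CPM per kb, overlapped both of its neighbours in the order and Mt2 (72.2 to 191).

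The first question was what insulin did to these genes in mice without the deletion, and here a test was run, although the 6 Control-STAM-INS libraries also served in the comparison by which members were chosen. For Gm45774, Mt4 and Ciapin1 the test is thus not independent of that choice. Mt2 and Gm45774 were lower with insulin, Mt1 was lower by a smaller amount that did not pass the test, and Mt3 and Ciapin1 showed no difference that passed it. The 2 called members are set against 10.5% of all tested genes called in this comparison, with 3.73% called higher and 6.76% called lower.

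Mt2 stood at 244, 385, 412 and 117 CPM in the 4 Control-STAM-nonINS libraries and at 11.6 to 148 CPM (median 72.2) in the 6 Control-STAM-INS libraries. The highest insulin-treated library thus lay above the lowest untreated one. The log2 fold change was -2.04 (SE 0.55, adjusted p = 0.0316, edgeR quasi-likelihood test over all 15267 genes). The call rested on few libraries: it was lost without replicates 1, 2 or 3 of Control-STAM-nonINS and without replicates 3, 4 or 5 of Control-STAM-INS, with edgeR adjusted p between 0.0541 and 0.0837 in those fits and fold changes between -2.11 and -1.81. It was also lost when no filter was applied (adjusted p = 0.0511), when only the 2 groups were fitted (adjusted p = 0.0810) and without the 2 libraries rich in B cell genes (adjusted p = 0.0515).

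Mt1 stood at 249, 407, 445 and 167 CPM in Control-STAM-nonINS and at 60.2 to 295 CPM (median 149) in Control-STAM-INS. The same libraries were low and high as for Mt2, with replicate 4 the lowest of the untreated group and replicate 6 the lowest of the insulin-treated group. The log2 fold change of Mt1 was -0.99 (SE 0.39, 95% interval -1.75 to -0.24), with an edgeR adjusted p of 0.117 and an unadjusted p of 0.0215. Without replicate 1 of Control-STAM-INS, the highest of its group, the log2 fold change was -1.26 and the edgeR adjusted p 0.0448.

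Since Mt1 and Mt2 are close paralogs between which the counting could have split reads, their counts were also summed. The sum was 606 ± 267 CPM in untreated mice (SD, n = 4) and 230 ± 135 CPM in insulin-treated controls (SD, n = 6), a log2 difference of -1.51 (exact two-sided permutation test over 210 arrangements, p = 0.0286, with 0.00476 the smallest p possible). In 4 of 6 insulin-treated libraries the sum lay below the lowest untreated library (284 CPM). Without replicate 1, 2 or 3 of Control-STAM-nonINS the exact permutation p was 0.0714, 0.0833 and 0.0833, while the log2 difference was -1.57, -1.34 and -1.30.

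Gm45774 was rarely read in control mice, and yet its groups did not overlap. It stood at 2.08, 2.59, 4.03 and 3.54 CPM in Control-STAM-nonINS and at 0.329 to 1.18 CPM (median 0.475) in Control-STAM-INS, from 31 to 81 and 5 to 15 reads per library. The log2 fold change was -2.45 (SE 0.25, edgeR adjusted p = 3.54e-05), and lack of overlap was seen for 10.6% of all tested genes. Low Control-STAM-INS values helped to choose this gene, so the p-value and the lack of overlap are not independent evidence of a fall. Without strand in the counting, reads in the stretch shared with Mt2 cannot be assigned to either gene, and the strand setting was not given. In the control libraries Gm45774 had at most 0.0588 reads per Mt2 read, and how many of them came from Mt2 cannot be told apart.

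Mt3 was read between 2 and 16 times in any library, at 0.871, 0.470, 0.392 and 0.306 CPM in Control-STAM-nonINS and 0.314 to 0.782 CPM in Control-STAM-INS. The groups overlapped fully (log2 fold change 0.26, SE 0.44, edgeR adjusted p = 0.767), and the interval of -0.60 to 1.13 leaves room for changes of either sign. Mt4 was represented by 5 reads in the 4 Control-STAM-nonINS libraries together and by 3 reads in the 6 Control-STAM-INS libraries, and a count of 0 in 1 library allows a level of up to 0.131 to 0.235 CPM. A difference in Mt4 between the control groups was not detectable at this depth. Ciapin1 stood at 28.4, 28.0, 32.4 and 21.7 CPM without insulin and at 25.0 to 29.7 CPM (median 27.3) with it, and its log2 fold change of -0.02 had a narrow interval of -0.24 to 0.19 (edgeR adjusted p = 0.925).

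**Figure D2:**
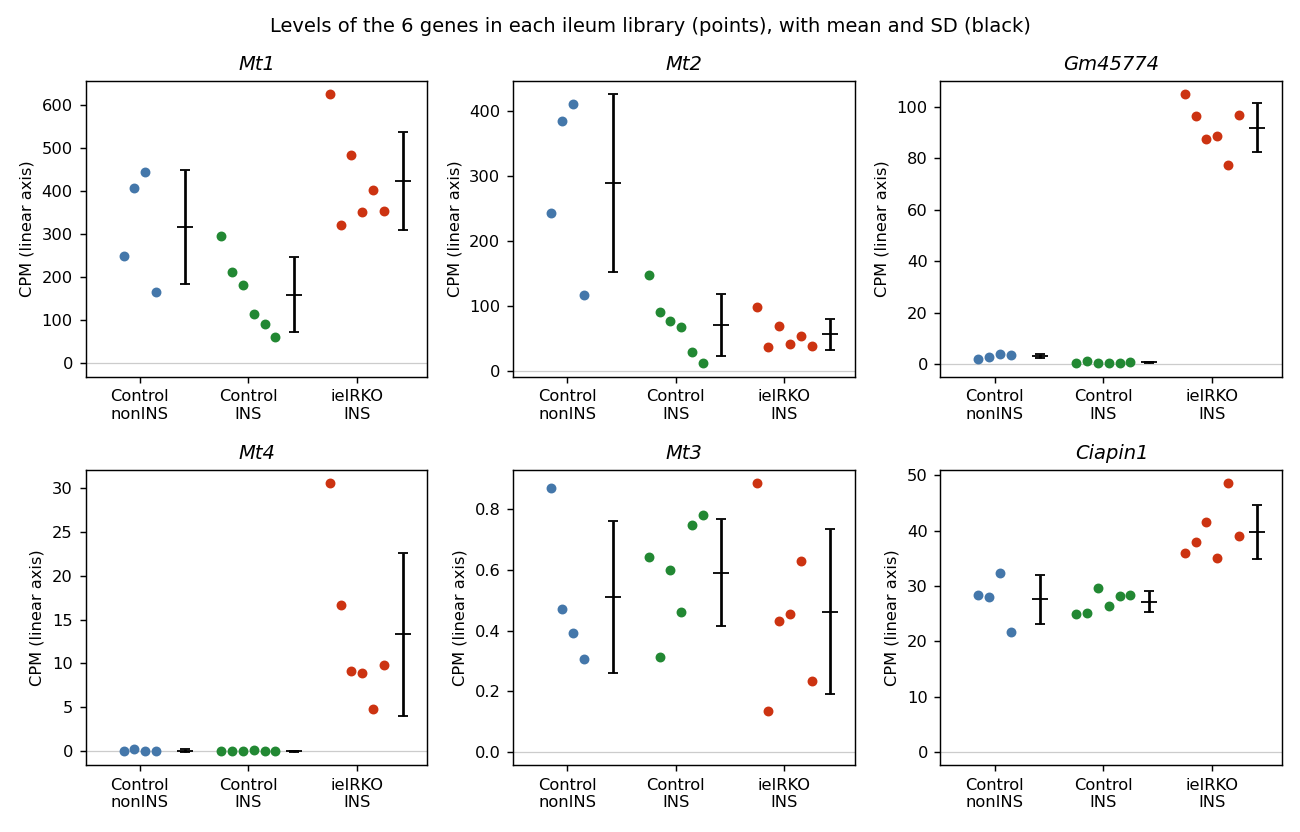
CPM of each of the 6 genes (y axis, linear) in every library (points) of the 3 groups (x axis), with the group mean and SD in black. Mt4 and Gm45774 sit near 0 in the control libraries and at 4.82 to 30.5 and 77.5 to 105 CPM in the libraries labelled ieIRKO-STAM-INS, whereas Mt2 is highest in Control-STAM-nonINS.

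The next question was how the genes stood in the mice labelled ieIRKO-STAM-INS compared with insulin-treated controls. Gm45774 and Mt4 were high in all 6 libraries labelled ieIRKO-STAM-INS and nearly absent from Control-STAM-INS, Mt1 and Ciapin1 were higher without overlap, and Mt2 and Mt3 overlapped. These differences, called the genotype comparison in what follows, chose the members and are descriptions only. As background, 0.223% of all tested genes were called in this comparison, 0.0393% higher and 0.183% lower, and the groups did not overlap for 0.845%.

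Gm45774 stood at 77.5 to 105 CPM (median 92.6) in ieIRKO-STAM-INS, from 1360 to 1650 reads per library, against a highest value of 1.18 CPM in Control-STAM-INS. The mean was 92.0 ± 9.53 CPM against 0.580 ± 0.322 CPM (SD, n = 6 in each), a fitted log2 difference of 7.33 (SE 0.21). Within ieIRKO-STAM-INS the highest library was only 1.35 times the lowest. Both libraries rich in B cell genes, at 96.7 and 87.5 CPM, lay inside the range of the other 4.

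Mt4 stood at 4.82 to 30.5 CPM (median 9.49) in ieIRKO-STAM-INS, from 92 to 448 reads per library, and at 0 to 0.132 CPM in Control-STAM-INS. Together these were 1240 reads against 3, a ratio of 432 after scaling by library size, which is imprecise with so few control reads. In contrast to Gm45774, Mt4 varied 6.32-fold among the ieIRKO-STAM-INS libraries, with replicate 1 the highest and replicate 5 the lowest.

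Mt4 is a gene of stratified squamous epithelium, so markers of that tissue were read beside it. The summed level of the 11 squamous markers was 7.15 to 19.5 CPM in ieIRKO-STAM-INS, 6.32 to 9.70 CPM in Control-STAM-INS and 4.55 to 25.1 CPM in Control-STAM-nonINS, with 2 of 11 passing the filter and 0 of these called between genotypes by edgeR or DESeq2 or at an unadjusted p under 0.05. Ivl was at 0 in all libraries of each group. The part of squamous cells in the Mt4 difference was not tested.

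Mt1 stood at 321 to 624.8 CPM (median 379) in ieIRKO-STAM-INS, above every Control-STAM-INS library (highest 295 CPM). The fitted log2 difference was 1.41 (SE 0.36). Mt2, in contrast, stood at 36.9 to 97.8 CPM (median 47.4) within the range of 11.6 to 148 CPM in Control-STAM-INS, with a log2 difference of -0.33 (SE 0.50). The sign for Mt2 was not stable, running from -0.56 to 0.04 as single libraries were left out. With the strand setting not given, the Mt2 levels here are also uncertain by the reads in the stretch shared with Gm45774. The sum of Mt1 and Mt2 was 480 ± 138 CPM against 230 ± 135 CPM (SD, n = 6 in each).

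Ciapin1 stood at 35.1 to 48.6 CPM (median 38.5) in ieIRKO-STAM-INS and at 25.0 to 29.7 CPM in Control-STAM-INS. No library of one group reached the other, and the log2 difference was 0.55 (SE 0.10), the smallest of those without overlap. Mt3 stood at 0.135 to 0.885 CPM, across the range of both control groups, with a log2 difference of -0.37 (SE 0.40).

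Markers of other cells of the wall were read beside these differences. The summed level of 6 B and plasma cell markers was 1655 to 3115 CPM in ieIRKO-STAM-INS and 959 to 1541 CPM in Control-STAM-INS, without overlap, and 0 of 6 were called by edgeR, 4 by DESeq2 and all 6 at an unadjusted p under 0.05. This sum did not follow the B cell genes that set replicates 2 and 3 apart, since replicate 2 had the lowest sum of ieIRKO-STAM-INS and replicate 5 the highest. Among the 6 Paneth cell markers 3 were called, all 3 lower, beside 0.183% of all tested genes called lower, with a summed level of 4624 to 12256 CPM against 7606 to 15421 CPM. The 8 enterocyte markers summed to 10956 to 32586 CPM in ieIRKO-STAM-INS, 20258 to 34423 CPM in Control-STAM-INS and 20831 to 35785 CPM in Control-STAM-nonINS. Between genotypes 0 of 8 were called by edgeR or DESeq2 and 0 had an unadjusted p under 0.05. The part of these cells in the differences of the metallothionein genes was not tested. Enteric neuron and glia markers, read because Mt3 is a neural gene, summed to 55.5 to 70.1 CPM and 56.9 to 79.0 CPM, with 0 of 9 called by edgeR or DESeq2 and 0 at an unadjusted p under 0.05.

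Against the untreated controls, the members' values in the libraries labelled ieIRKO-STAM-INS gave another order, and this comparison shares the same ieIRKO-STAM-INS libraries. Of all tested genes 13.3% were called, 5.74% higher and 7.59% lower, and the groups did not overlap for 8.56%. Mt2 did not overlap, with a highest value of 97.8 CPM in ieIRKO-STAM-INS against a lowest of 117 CPM in Control-STAM-nonINS (log2 difference -2.36, SE 0.55). If the counting ignored strand, reads in the stretch shared with Gm45774 could not be assigned, so these Mt2 levels are uncertain. Mt1 overlapped (log2 difference 0.42, SE 0.39). Gm45774 differed by 4.88 on the log2 scale (SE 0.21), Mt4 by a ratio of 175 (1240 against 5 reads), and Ciapin1 by 0.53 on the log2 scale (SE 0.11), all without overlap. Mt3 overlapped (-0.11, SE 0.45).

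Ratios taken within a library do not depend on its scaling. The Mt1 to Mt2 ratio of read counts was 1.02, 1.06, 1.08 and 1.42 in Control-STAM-nonINS, 1.69 to 5.18 (median 2.37) in Control-STAM-INS, and 6.39 to 9.13 (median 7.99) under the ieIRKO-STAM-INS label. The 3 groups did not overlap in this ratio. Mt1 and Mt2 were thus read about equally in untreated mice, and Mt1 outweighed Mt2 in every insulin-treated library. Within Control-STAM-INS the ratio was highest, 5.18, in replicate 6, the library with the lowest Mt1 and the lowest Mt2. The Mt2 counts in these ratios carry the uncertainty over reads shared with Gm45774, most of all in ieIRKO-STAM-INS, where Gm45774 was high.

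The Gm45774 to Mt2 ratio was 0.00852, 0.00671, 0.00978 and 0.0302 in Control-STAM-nonINS, 0.00278 to 0.0588 (median 0.00933) in Control-STAM-INS, and 1.07 to 2.62 (median 1.79) under the ieIRKO-STAM-INS label. The antisense gene was thus counted more often than Mt2 in each ieIRKO-STAM-INS library and far less often in each control library, while the control groups overlapped. Mt2 and Gm45774 counted together came to 293 ± 137 CPM in untreated mice (SD, n = 4), 71.1 ± 48.2 in insulin-treated controls and 148 ± 28.4 under the ieIRKO-STAM-INS label (SD, n = 6 in each). The ratios follow from values that chose the members and carry no test.

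**Figure D3:**
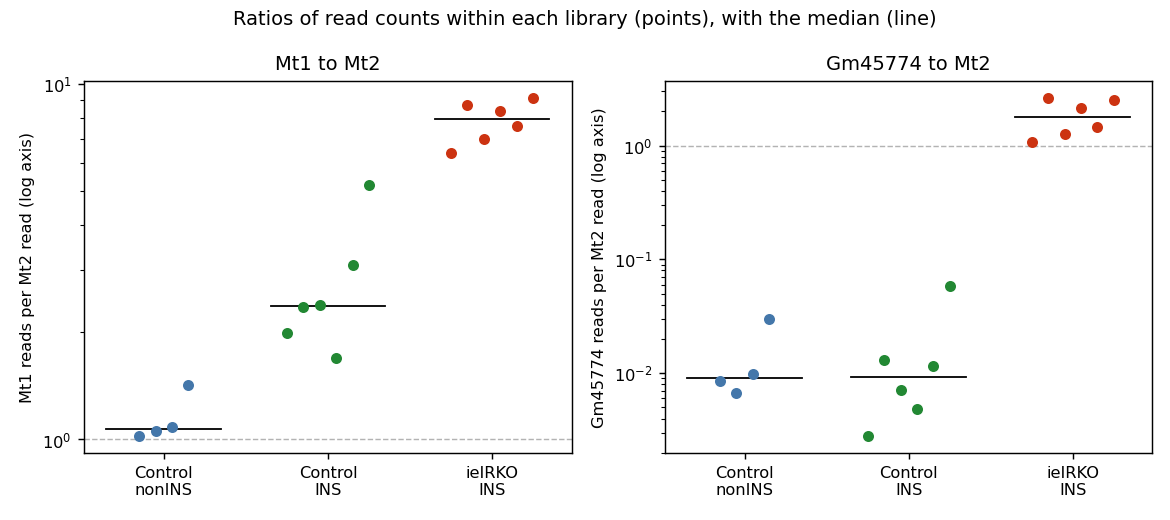
Ratio of read counts of Mt1 to Mt2 (left) and Gm45774 to Mt2 (right) in each library (points, log y axis) of the 3 groups, with the group median as a line and equality dashed. The Mt1 to Mt2 ratio runs from 1.02 to 1.42, from 1.69 to 5.18 and from 6.39 to 9.13 in the 3 groups, and the Gm45774 to Mt2 ratio exceeds 1 in the ieIRKO-STAM-INS libraries and in no control library.

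Genes around the cluster were read to see how far the differences reached. Within 1 Mb of the Mt1 start GENCODE lists 61 other genes, placed by their lowest coordinate whatever the strand, of which 31 were tested. In the genotype comparison 1 of 31 was called, beside 0.223% of all tested genes (0.183% lower). It was the carboxylesterase Ces1f at -923 kb from the Mt1 start (47.6 ± 2.53 CPM in ieIRKO-STAM-INS against 79.6 ± 8.26 CPM, log2 fold change -0.74, SE 0.14, edgeR adjusted p = 0.0219). Its call was lost without replicates 2, 3 or 6 of Control-STAM-INS, without replicates 2, 4 or 5 of ieIRKO-STAM-INS, and without both libraries rich in B cell genes. The median log2 fold change of the 31 was -0.06, beside 0.02 over all tested genes. Of the 15 tested genes placed between Mt4 and Ciapin1, 0 were called by edgeR and 0 by DESeq2, and 4 had an unadjusted p under 0.05. Nup93, a nuclear pore gene 35.5 kb after the Mt1 start, had a log2 fold change of 0.10, and Coq9, placed 659 kb from Mt1 beside Ciapin1, had -0.20, neither called.

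With insulin in control mice 3 of the 31 neighbours were called, and among them Pllp (-0.78, SE 0.17) and Adgrg1 (-0.55, SE 0.13) fell. The share called was close to the 10.5% of all genes, and the median was 0.03 beside -0.004 over all tested genes. In ieIRKO-STAM-INS over untreated controls 10 of 31 were called, 2 higher and 8 lower, beside 13.3% of all tested genes (5.74% higher and 7.59% lower), a count that fell to 4 without replicate 1 of Control-STAM-nonINS and to 4 without both libraries rich in B cell genes. The long RNA 9330175E14Rik rose at a low level (0.286 ± 0.110 to 1.67 ± 1.15 CPM, log2 fold change 2.49), as did Ccl22, a dendritic cell chemokine (1.89). Ces1e, Ces1f, Ces1g, Gm15889, Herpud1, Cpne2, Pllp and Adgrg1 fell, by 0.63 to 1.13 on the log2 scale.

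**Figure D4:**
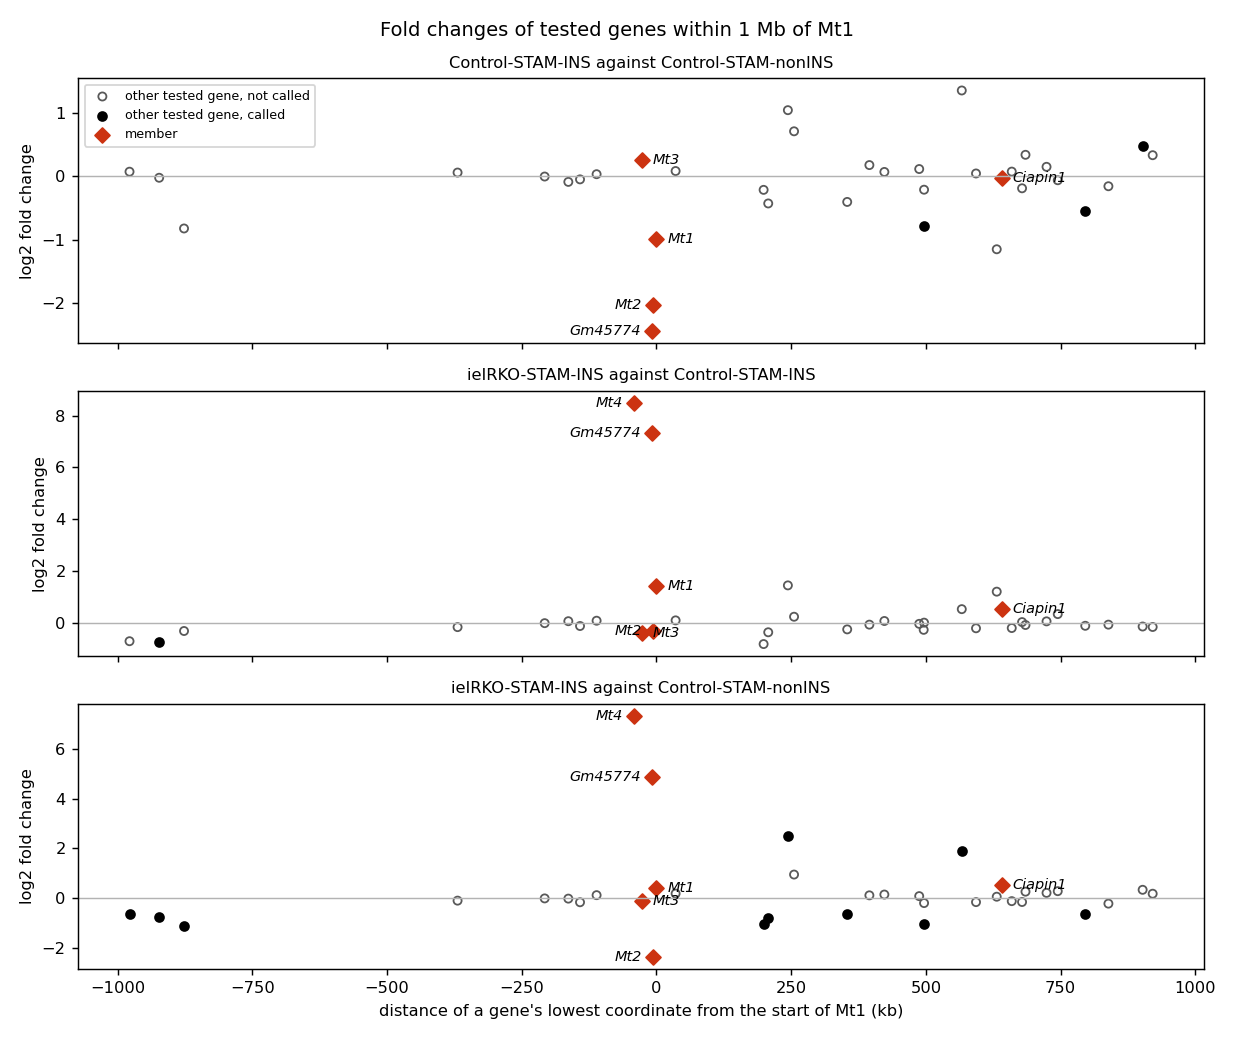
Log2 fold change (y axis) of the tested genes within 1 Mb of Mt1 against the distance of their lowest coordinate, on either strand, from the Mt1 start in kb (x axis), for the 3 comparisons; red diamonds are the members, filled circles other genes called by edgeR and open circles those not called. In the genotype comparison, Mt4 and Gm45774 stand at 8.48 and 7.33 (fitted values), whereas the 31 other genes lie between -0.81 and 1.45; Mt4 is not drawn for insulin, where both groups are near 0 reads.

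Zinc handling was read through 27 tested genes of 30 listed, made up of the zinc exporters and importers of the Slc30a and Slc39a families, Mtf1 and a few copper and iron transporters. With insulin in control mice 6 of 27 were called (4 higher, 2 lower), beside 10.5% of all tested genes, and the list's median was 0.09 on the log2 scale beside -0.004 over all tested genes. Slc30a2, which loads zinc into secretory vesicles, fell from 124 ± 27.1 to 72.3 ± 9.57 CPM (log2 fold change -0.77, SE 0.15, edgeR adjusted p = 0.00330), and the copper pump Atp7b fell by 0.73. The iron exporter Slc40a1 rose by 1.00, and Slc30a5 (0.31), Slc39a5 (0.38) and Slc39a9 (0.43) rose by less. Mtf1, the metal-responsive factor, stood at 41.0 ± 5.36 and 51.4 ± 3.71 CPM (adjusted p = 0.182 by edgeR), and Slc39a4, the main dietary zinc importer, at 273 ± 75.7 and 343 ± 62.4 CPM (adjusted p = 0.417 by edgeR). The count was 1 without replicate 1 of Control-STAM-nonINS, 2 without replicates 3 or 4 of that group or replicate 1 of Control-STAM-INS, and 3 without replicates 3, 4, 5 or 6 of Control-STAM-INS.

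In the genotype comparison 0 of the 27 were called by edgeR and 0 by DESeq2, with 5 at an unadjusted p under 0.05 and a median log2 fold change of -0.10. Slc30a10, a manganese exporter, had the lowest value of the list, with 7.96 ± 4.81 against 16.5 ± 4.86 CPM (log2 fold change -1.06, SE 0.39, edgeR adjusted p = 0.352). In ieIRKO-STAM-INS over untreated controls 5 of 27 were called, beside 13.3% of all tested genes: Slc30a2 (-1.19) and Atp7b (-0.82) fell and Slc30a5 (0.28), Slc30a7 (0.35) and Slc40a1 (1.26) rose. That count was 3 without replicate 3 of Control-STAM-nonINS and 3 without both libraries rich in B cell genes.

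Glucocorticoid-responsive genes were read because glucocorticoids are inducers of Mt1 and Mt2. Of 12 tested, 7 were called with insulin in control mice, all 7 lower, beside 6.76% of all tested genes called lower, and the median of the list was -0.99 beside -0.004 over all tested genes. Fkbp5, a cochaperone of the glucocorticoid receptor, fell from 304 ± 104 to 147 ± 37.8 CPM (log2 fold change -1.05, SE 0.29, edgeR adjusted p = 0.0337). Errfi1 (-1.78), the phosphatase Dusp1 (-1.31), Hsd11b1 (-1.11), Ddit4 (-1.06), Hsd11b2 (-0.82) and the transcription factor Klf9 (-0.55) fell too. Sgk1, a kinase that acts on sodium transport, stood at 707 ± 265 and 267 ± 92.4 CPM without passing the test (adjusted p = 0.0634 by edgeR), and the receptor gene Nr3c1 stood at 164 ± 18.8 and 179 ± 16.9 CPM (adjusted p = 0.464 by edgeR). The count was 4 without replicate 1 or 3 of Control-STAM-nonINS or without replicate 6 of Control-STAM-INS.

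In the genotype comparison 0 of the 12 were called by edgeR and 1 by DESeq2, with 3 at an unadjusted p under 0.05 and a median of -0.19. Fkbp5 stood at 76.7 ± 32.3 against 147 ± 37.8 CPM (log2 fold change -0.94, SE 0.27, edgeR adjusted p = 0.289). In ieIRKO-STAM-INS over untreated controls 9 of 12 were called, all 9 lower, beside 7.59% of all tested genes called lower, and the median was -1.20, among them Fkbp5 (-1.99, SE 0.29, edgeR adjusted p = 0.000854), Sgk1 (-1.76), Per1 (-1.27) and Hsd11b2 (-1.24). That count was 4 when only the 2 groups were fitted.

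**Figure D5:**
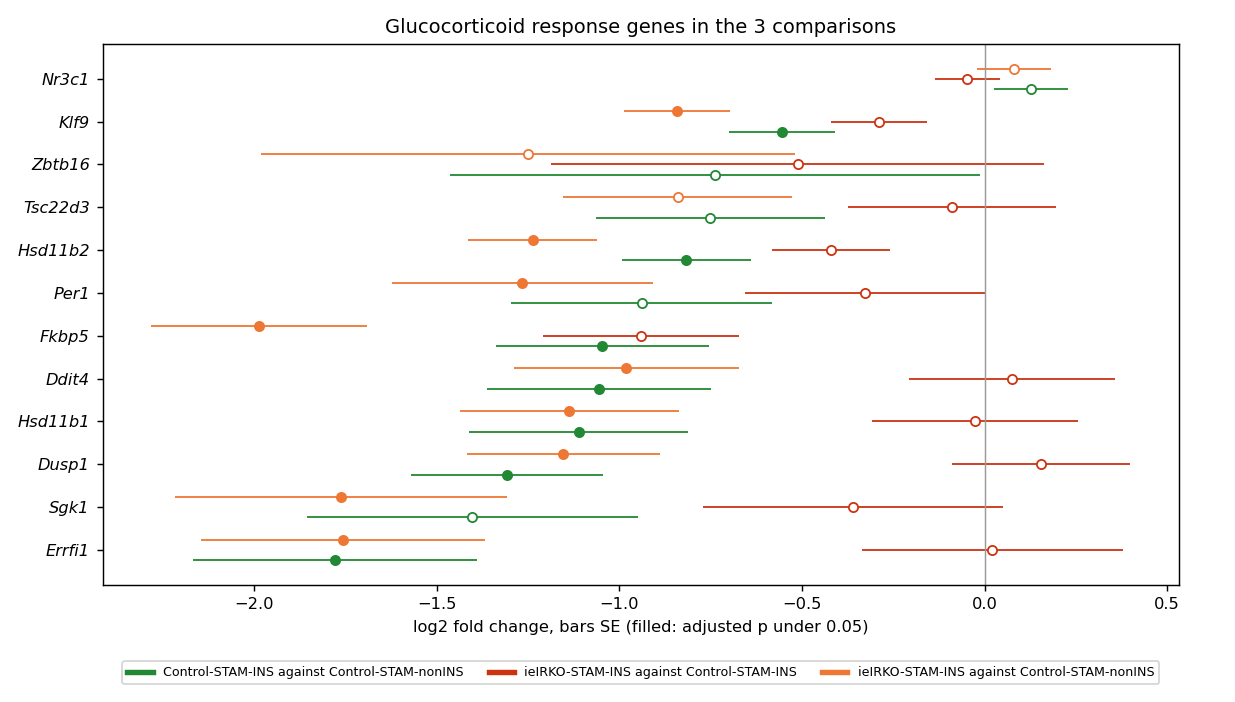
Log2 fold change with SE (x axis) of the 12 glucocorticoid response genes (y axis) in the 3 comparisons, filled where the edgeR adjusted p was under 0.05. Filled points, 7 for insulin in control mice and 9 for ieIRKO-STAM-INS over untreated controls, all lie below 0, and none is filled for the genotype comparison.

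Oxidative stress genes under NRF2 were read as a further group of inducible genes. With insulin 1 of 12 was called, a share near the 10.5% of all tested genes, the glutathione transferase Gsta4, which fell from 49.2 ± 15.1 to 29.2 ± 4.63 CPM (log2 fold change -0.76, SE 0.22), and the count ran from 0 to 2 as single libraries were left out. Between genotypes 0 of 12 were called by edgeR and 0 by DESeq2, with 3 at an unadjusted p under 0.05. The median log2 fold change of the 12 was -0.15 there, beside 0.02 over all tested genes. Against Control-STAM-nonINS 2 of 12 were called, beside 13.3% of all tested genes, with Gsr (0.64) higher and Nqo1 (-0.45) lower.

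The partners of Ciapin1 in cytosolic iron-sulphur assembly were read through 7 genes. With insulin 0 of 7 were called by edgeR and 2 by DESeq2, with 2 at an unadjusted p under 0.05. Between genotypes 0 of 7 were called by edgeR and 0 by DESeq2, with 1 at an unadjusted p under 0.05 and log2 fold changes from -0.09 to 0.14. Against Control-STAM-nonINS Nubp2 (18.5 ± 0.554 to 23.9 ± 1.18 CPM, 0.37) and Ciao3 (15.1 ± 2.47 to 20.4 ± 1.09 CPM, 0.43), both parts of that machinery, rose, and the other 5 were not called, beside 13.3% of all tested genes called.

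Genes most like the members were found by Pearson's r of log2 CPM over the 16 libraries, which share their groups and scaling, among genes with a mean of at least 1 CPM. Gm45774, Mt4 and Ciapin1 were selected on the same difference, so their likeness over the 16 libraries was set by the choice (r of 0.94 for Mt4 and 0.82 for Ciapin1 against Gm45774). Beside them the nearest to Gm45774 of 14086 genes were Srp72 (0.80), Alkbh1 (0.79) and Xpo5 (0.79). Mt1 ranked 35 with 0.72, while Mt2, the gene opposite Gm45774, had -0.14. With group means removed, the values against Gm45774 were 0.15 for Mt1, 0.13 for Mt4, -0.01 for Mt2 and -0.18 for Ciapin1, and the nearest genes became Vbp1 (0.87), Cnep1r1 (0.83), Nat8f1 (0.83), Clp1 (0.79) and Tmem165 (0.76).

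The sum of Mt1 and Mt2 was nearest to Plek2 (0.75), Mtss1 (0.75), Impa2 (0.74), Eif4ebp1 (0.72) and Fmod (0.71). With group means removed the nearest were Anxa7 (0.82), Pkp4 (0.81), Abcf1 (0.80), Ptgfr (0.79) and Bmp2 (0.78). None of the genes nearest over the 16 libraries was among the 5 nearest within groups, and the values for Mt4 (0.23), Ciapin1 (0.12) and Gm45774 (0.09) within groups were low.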

How the data were processed

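Total RNA of the ileal wall was sequenced with a directional kit, and the authors mapped the reads to GRCm38 in CLC Genomics Workbench and deposited 1 file per library with whole-number read counts per gene (41740 names), the unit used here. The counting strand setting was not given in the sources used here. Groups were taken from the sample labels, which number biological replicates. Genes were filtered with filterByExpr (minimum count 10, total 15), scaled by TMM and fitted in edgeR 4.0.16 (R 4.3.3) with the robust quasi-likelihood test over all 3 groups together, and p-values were adjusted by Benjamini-Hochberg over 15267 genes. A gene was called at an adjusted p under 0.05. Log2 levels used a prior count of 2, and per-kb levels divide CPM by the spliced length in GENCODE M21, which held 99.1% of tested names.

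The members and gene lists were chosen with earlier results of these data known. Named genes are the 6 members, list and neighbouring genes that were called, the most abundant of each list, and the 5 genes most like Gm45774 or the sum of Mt1 and Mt2. Genes between the outermost members could be named too, and Slc30a10 and Mtf1 were added after their values were seen. Alternatives were DESeq2 1.42.0, upper-quartile scaling, no filter, 2 groups only, a replicate block, each library left out, and, chosen after seeing the data, both libraries rich in B cell genes left out. The edgeR step was tested on simulated data. Intervals on reads cover counting error only, and p-values measure the spread between these samples. A neighbouring gene is not reported here by name.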

Additional observations from a re-analysis of the deposited data

Results flagged for a closer look

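In Dixon's test of the 6 members, their ratios and the sum of Mt1 and Mt2 within each group, 4 values stood apart from the rest of their group, where 27 such tests give 1.35 by chance. The Mt4 level of Control-STAM-nonINS replicate 2 (0.314 CPM, from 4 reads) lay off by a gap of 0.861 of all the group spanned, but the other libraries held 0, 0 and 1 reads, so this gap rests on counts at the floor and is not read further. In Control-STAM-nonINS replicate 4 the Mt1 to Mt2 ratio (1.42, gap 0.847) and the Gm45774 to Mt2 ratio (0.0302, gap 0.869) were high, and Mt2 itself was the lowest of the group at 117 CPM. In Control-STAM-INS replicate 6 the Gm45774 to Mt2 ratio (0.0588, gap 0.816) was high, and Mt2 was again the lowest of the group at 11.6 CPM.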

How the results depend on the processing

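Genes called with insulin numbered 1602, and 824 to 1877 as single libraries were left out (824 without replicate 1 of Control-STAM-nonINS). In ieIRKO-STAM-INS over Control-STAM-INS 34 were called, 127 by DESeq2 and 29 to 50 as libraries were left out. Against Control-STAM-nonINS 2036 were called, 1038 with only the 2 groups, 1270 without both libraries rich in B cell genes and 1093 to 2274 as libraries were left out. Members called with insulin numbered 1 without a filter, with only the 2 groups and without the B-cell-rich libraries, and 1 to 3 as libraries were left out. Mt2 (-2.03, -2.02 and -2.03 under those settings) ranged from -2.40 to -1.81, Mt1 from -1.26 to -0.78, and the summed Mt1 and Mt2 from -1.83 to -1.22. The sum was little moved by scaling (-1.50 and -1.49). The fitted Mt4 value against Control-STAM-INS was 9.44 without replicate 4 of that group and against Control-STAM-nonINS 9.05 without its replicate 2, libraries that hold most of the few control reads. Gm45774 kept its direction and its call with insulin under every setting run (-2.71 to -2.29).

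List counts with insulin, as libraries were left out, were 1 to 6 for zinc genes, 4 to 8 for glucocorticoid genes, 0 to 2 for NRF2 genes, 0 to 1 for iron-sulphur genes and 2 to 5 for neighbours. By DESeq2 they were 2 for NRF2, 2 for iron-sulphur and 5 for neighbours, by upper-quartile scaling 5 for neighbours, with only the 2 groups 2 for NRF2 and 5 for neighbours, and without a filter 0 for NRF2. In the genotype comparison DESeq2 called 1 glucocorticoid gene and 2 neighbours, and neighbours ran from 0 to 1, with 0 without the B-cell-rich libraries. Against Control-STAM-nonINS the ranges were 3 to 5, 6 to 9, 0 to 3, 1 to 2 and 4 to 10 in the same order of lists. There, with only the 2 groups, 4 glucocorticoid, 0 NRF2 and 1 iron-sulphur gene were called, without a filter 1 NRF2 gene, and without the B-cell-rich libraries 3 zinc genes, 1 NRF2 gene and 4 neighbours. The causes were not tested.

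Replicate numbers are shared between groups, but same-numbered libraries deviated together only weakly (correlations from -0.0943 to 0.179, not all above 0.1), so the libraries were taken to share only a number. With a replicate block 1397, 30 and 1615 genes were called in the 3 comparisons, both member calls with insulin held, and NRF2 counts were 0 with insulin and 1 against Control-STAM-nonINS.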
